A study of Mus musculus with 8 samples.

Results

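The genes that supply macrophages with amino acids were followed in 32 genes picked by symbol, of 55487 listed in the deposited table: 20 enzymes that make or interconvert amino acids and the folate units bound to them, and 12 transporters. The rule uses symbols alone, but the set was drawn up with earlier results of these data known. J774A.1, a mouse macrophage cell line, was exposed for 24 h either to lipopolysaccharide (LPS, 1 μg/mL) or to LPS at that dose together with ursodeoxycholic acid (UDCA, 1 mM), a secondary bile acid. Each condition had 4 RNA libraries, and no library without LPS was analysed here, so all values compare levels under LPS in a single cell line. Values are TPM, the share of a library's transcripts after division by transcript length, so that levels of different genes in a library can be set side by side. The depth of the libraries is unknown, since TPM does not keep it.

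Serine is made from the glycolytic intermediate 3-phosphoglycerate by Phgdh, Psat1 and Psph in turn, and serine hydroxymethyltransferases then split it into glycine and a carbon unit carried by folate. Asparagine, aspartate, alanine, glutamate, glutamine and proline come from a network of transaminases, amidation reactions and reductases around glutamate. Cells also import amino acids through solute carriers, some of which are antiporters that pay for one amino acid with another. When amino acids run short or the endoplasmic reticulum is stressed, the transcription factor ATF4 is known to raise many enzymes and transporters of this kind together.

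Most of the enzymes fell, while the transporters were spread in both directions. Genes averaging 1 TPM or more over the 8 libraries were tested, which left 31 members. Cbs, the first enzyme of transsulfuration, did not, with 0.14 to 0.44 TPM in the 8 libraries. Of 19 enzymes tested, 13 fell, 3 rose and 3 were not called at a Benjamini-Hochberg adjusted p (FDR) under 0.05 from limma. Of 12 transporters, 3 fell, 6 rose and 3 were not called. Over all 11796 genes tested, 32.3% fell and 40.2% rose by the same rule, against 68.4% and 15.8% of the enzymes, while 3 and 6 of the 12 transporters make shares near those of all genes. The median log2 fold change, taken on the log2(TPM + 1) scale as LPS + UDCA minus LPS, was -0.36 for the enzymes, 0.081 for the transporters and 0.082 for all genes tested. The transporter median therefore lay at the level of the whole transcriptome, and their range was wide, from -0.70 to 1.33. The difference between the classes was not tested, because of how the members were chosen.

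**Figure D1:**
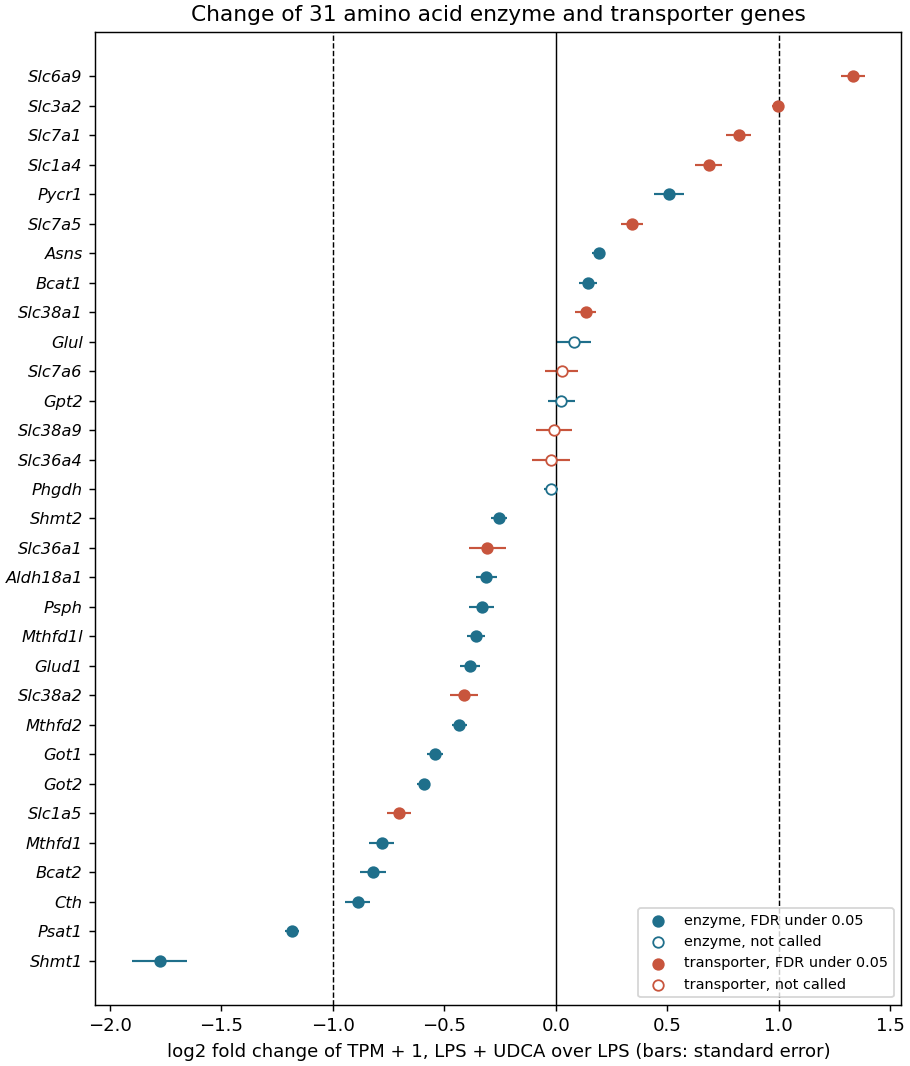
Log2 fold change of TPM + 1 (LPS + UDCA over LPS, horizontal axis) of the 31 tested genes, with the limma standard error as bars, enzymes in blue and transporters in red, open symbols for genes not called at an FDR under 0.05, and dashed lines at a 2-fold change. Slc6a9 lies furthest to the right at 1.33 and Shmt1 furthest to the left at -1.78, and 13 of the 19 enzymes are filled symbols to the left of 0.

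All 25 called genes also had groups that did not overlap: in 9 every LPS + UDCA library lay above every LPS library (37.0% of all genes tested did) and in 16 below (29.9% of all genes tested). With a fold change of at least 2 as well, Slc6a9 rose, and Psat1 and Shmt1 fell, which is 1 and 2 of 31 against 8.71% and 8.44% of all genes tested. Most members thus moved by less than 2-fold while the replicates were tight. Permuting the group labels in all 70 ways gave an exact 2-sided p = 0.029 for each of the 25, the smallest value this design allows. The labels do not say that the replicates are separate cultures, so p-values measure the spread between these libraries, which may be technical.

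As a check on the labelled cell type, 11 of 12 macrophage markers had at least 1 TPM in every library, and Mertk was listed at 0 throughout. All 15 markers of epithelial, lymphoid, stromal, endothelial and liver cells stayed under 1 TPM, 6 of them at 0 throughout, and summed to 0.85 to 1.08 TPM with LPS and to 0.04 to 0.61 TPM with LPS + UDCA. The macrophage markers summed to 5975 to 6260 TPM with LPS and to 4201 to 4640 TPM with LPS + UDCA, but 5 of the 11 tested rose and 6 fell. Lyz2, which encodes lysozyme, carried much of the drop in the sum, at 1988 ± 93.8 and 436 ± 19.97 TPM (SD, n = 4), whereas Adgre1, the F4/80 antigen, rose from 46.6 ± 3.97 to 114 ± 8.24 TPM. In the same comparison all 12 proliferation markers fell, from a sum of 995 to 1030 TPM to one of 234 to 243 TPM. In bulk RNA, fewer cells of a kind and less RNA per cell cannot be told apart.

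ATF4 is known to bind, with C/EBP family partners, elements whose core reads TGATGNAA. RefSeq promoter windows (GRCm38.p6, from 250 bases before to 50 after a transcription start) were found for 28 of the 32 genes, not for Cth, Slc7a5, Slc1a5 and Slc38a1. Searched on both strands, the core occurred in windows of 4 of the 28 genes and of 4.51% of 27025 genes with windows. The 4 are shown with the core in capitals, 5′ to 3′ along the gene's strand, because they mark where this motif stands relative to genes that rose (Asns, Slc1a4, Pycr1) and to one that fell (Got1).
Asns, GRCm38 chr6:7693210-7693292, minus strand: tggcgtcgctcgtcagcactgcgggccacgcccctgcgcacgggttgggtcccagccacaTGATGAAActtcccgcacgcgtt
Slc1a4, GRCm38 chr11:20332710-20332777, minus strand: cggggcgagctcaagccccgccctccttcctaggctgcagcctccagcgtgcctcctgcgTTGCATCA
Pycr1, GRCm38 chr11:120643804-120643911, minus strand: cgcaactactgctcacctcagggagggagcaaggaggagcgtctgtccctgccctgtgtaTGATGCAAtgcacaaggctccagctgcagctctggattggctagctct
Got1, GRCm38 chr19:43524660-43524767, minus strand: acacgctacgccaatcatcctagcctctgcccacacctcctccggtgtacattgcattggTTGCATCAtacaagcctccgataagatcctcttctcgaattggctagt
The core begins 23 bases before the start in Asns, 4 in Slc1a4, 103 in Pycr1 and 102 in Got1. In Slc1a4 and Got1 it is read on the opposite strand. A match of 8 letters is a description and not a bound site, and the windows leave out introns and distant elements.

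The antioxidant response element, written here as TGACNNNGC, is the core known to be recognized by NRF2. It occurred in windows of 8 of those 28 genes and of 14.0% of all genes with windows and overlapped none of the TGATGNAA matches above. Slc6a9 alone was picked for display, because it rose most, and a link between the element and that rise was not tested. Slc6a9 has 3 windows, and that of 1 annotated start held no match. Before the other 2 starts the element stands 46 and 45 bases away, shown in capitals.
Slc6a9, GRCm38 chr4:117849244-117849349, plus strand: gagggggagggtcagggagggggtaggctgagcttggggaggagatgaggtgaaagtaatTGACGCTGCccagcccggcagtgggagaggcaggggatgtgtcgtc
Slc6a9, GRCm38 chr4:117855442-117855546, plus strand: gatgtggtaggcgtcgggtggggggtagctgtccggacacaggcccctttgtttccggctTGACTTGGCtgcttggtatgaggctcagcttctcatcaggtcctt
The other 7 genes were Phgdh, Psph, Asns, Slc7a6, Slc7a1, Slc38a2 and Slc36a1, of which 2 rose, 3 fell and 2 were not called. The cAMP response element TGACGTCA was in no member window (2.03% of all genes), and the E-box CACGTG was in those of Aldh18a1, Cbs and Slc36a1 (8.09% of all genes).

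In the serine branch the first enzyme was not called and the later ones fell. Phgdh, which oxidizes 3-phosphoglycerate, was the most abundant enzyme, with 599.9, 603, 605 and 601 TPM in the 4 LPS libraries and 607, 615, 583 and 566 TPM in the LPS + UDCA libraries. These groups overlapped (log2 fold change -0.023, SE 0.031, adjusted p = 0.53 from limma), and the sign depended on scaling, with 0.11 after quantile normalization (adjusted p = 0.035) and -0.10 after median-of-ratios scaling (adjusted p = 0.036). Of the 31-base words in Phgdh transcripts, 55.9% also occur in another annotated gene, which makes its level uncertain. Psat1 (chromosome 19, 15904678 to 15947337, GRCm38), the aminotransferase of the next step, had 268, 270.1, 261 and 273 TPM with LPS and 119, 122, 115 and 115 TPM with LPS + UDCA. The groups lay far apart, at 268 ± 5.22 and 117 ± 3.24 TPM (SD, n = 4; log2 fold change -1.18, SE 0.032, adjusted p = 5.7e-09 from limma). Psph, the phosphatase that releases serine, went from 279 ± 15.3 to 221 ± 13.4 TPM (log2 fold change -0.33, SE 0.054, adjusted p = 4.2e-04 from limma). Cct6a overlaps Psph on the other strand and rose, from 254 to 393 TPM on average, and whether reads were counted by strand is not given in the sources used here. Of these 3 enzymes that act in sequence, Psat1 fell most.

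**Figure D2:**
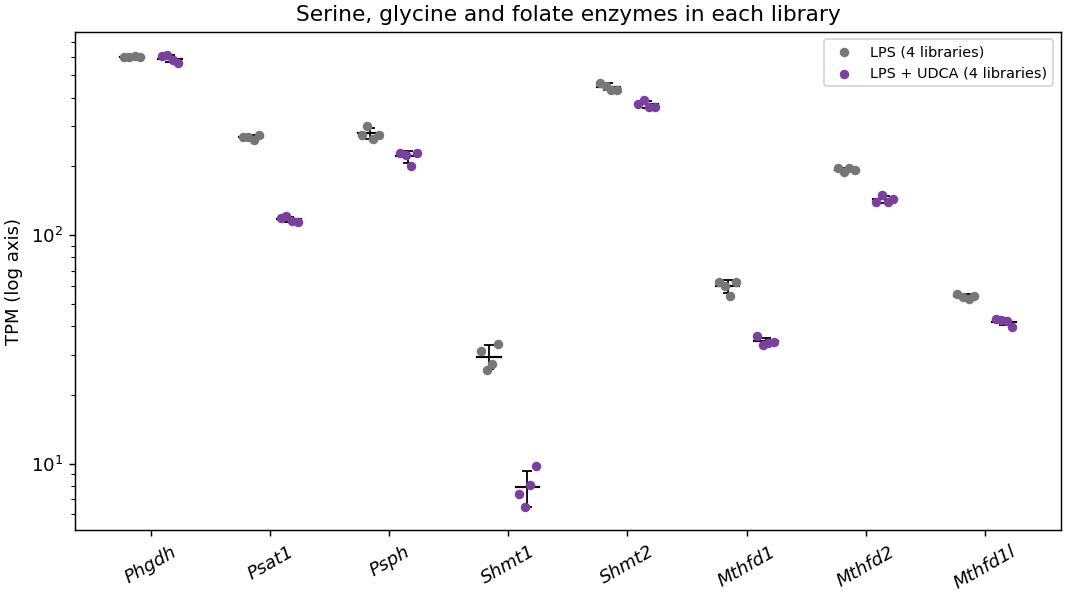
TPM (log axis) of the 8 serine, glycine and folate enzymes in each of 4 LPS libraries (grey) and 4 LPS + UDCA libraries (purple), with the mean and SD as black bars where they are wider than the points. Phgdh overlaps between the groups, and the LPS + UDCA libraries of the other 7 lie below the LPS libraries.

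The cytosolic arm of the folate cycle fell more than the mitochondrial arm. Shmt1 (chromosome 11, 60788104 to 60811718), the cytosolic serine hydroxymethyltransferase, had 31.1, 25.7, 27.4 and 33.5 TPM with LPS and 7.34, 6.44, 8.08 and 9.79 TPM in the LPS + UDCA libraries (log2 fold change -1.78, SE 0.123, adjusted p = 1.5e-06 from limma). No LPS + UDCA library reached 10 TPM, and no LPS library was under 25 TPM. Shmt2, its mitochondrial counterpart, was far more abundant, at 465, 452, 433 and 434 TPM with LPS and 375, 392, 365 and 363 TPM in the LPS + UDCA libraries (log2 fold change -0.25, SE 0.037, adjusted p = 1.9e-04 from limma). Smcr8 overlaps Shmt1 on the other strand and went the opposite way, from 20.2 to 36.0 TPM on average. Ndufa4l2, which overlaps Shmt2, was below 1 TPM.

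Mthfd1, the cytosolic enzyme with 3 activities on folate-bound carbon, had 62.3, 59.8, 54.3 and 62.5 TPM with LPS. With LPS + UDCA it had 36.3, 33.2, 33.6 and 34.1 TPM (log2 fold change -0.78, SE 0.055, adjusted p = 1.7e-06 from limma). The mitochondrial dehydrogenase Mthfd2 changed less, from 197, 189.8, 196 and 192 TPM to 139.7, 149, 140.2 and 144 TPM (log2 fold change -0.43, SE 0.033, adjusted p = 3.0e-06 from limma). Mthfd1l, the mitochondrial ligase that releases formate, went from 55.3, 53.8, 52.6 and 54.0 TPM to 43.2, 42.4, 42.3 and 39.8 TPM (log2 fold change -0.36, SE 0.041, adjusted p = 4.0e-05 from limma). All 3 folate enzymes thus fell with no overlap between groups, and the proliferation markers given above moved with them. What part these have in the result was not tested.

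To compare such partners directly, the log2 ratio of TPM + 1 was taken within each library for 11 pairs and tested by a 2-sided exact permutation test. In 10 pairs the groups did not overlap (exact p = 0.029, or 0.031 when adjusted over the 11 pairs by Benjamini-Hochberg). Among single genes tested, 37.0% lay wholly above and 29.9% wholly below. The share over other gene pairs was not computed, so the count of 10 cannot be read as particular to these partners. The Shmt1/Shmt2 ratio went from -3.88 ± 0.178 with LPS to -5.41 ± 0.272 with LPS + UDCA (SD, n = 4), a difference of -1.52. In plain TPM, Shmt1 stood at 0.057 to 0.077 of Shmt2 with LPS and at 0.016 to 0.027 of it with LPS + UDCA. Mthfd1/Mthfd2 moved by -0.35, from -1.68 ± 0.103 to -2.03 ± 0.092. Mthfd1/Mthfd1l changed sign, from 0.14 ± 0.068 to -0.28 ± 0.062, so the cytosolic transcript was the more abundant of the pair with LPS and the less abundant with LPS + UDCA. In each of these 3 pairs the cytosolic member lost ground, but Mthfd1/Mthfd2 and Mthfd1/Mthfd1l share Mthfd1 and are not separate instances.

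**Figure D3:**
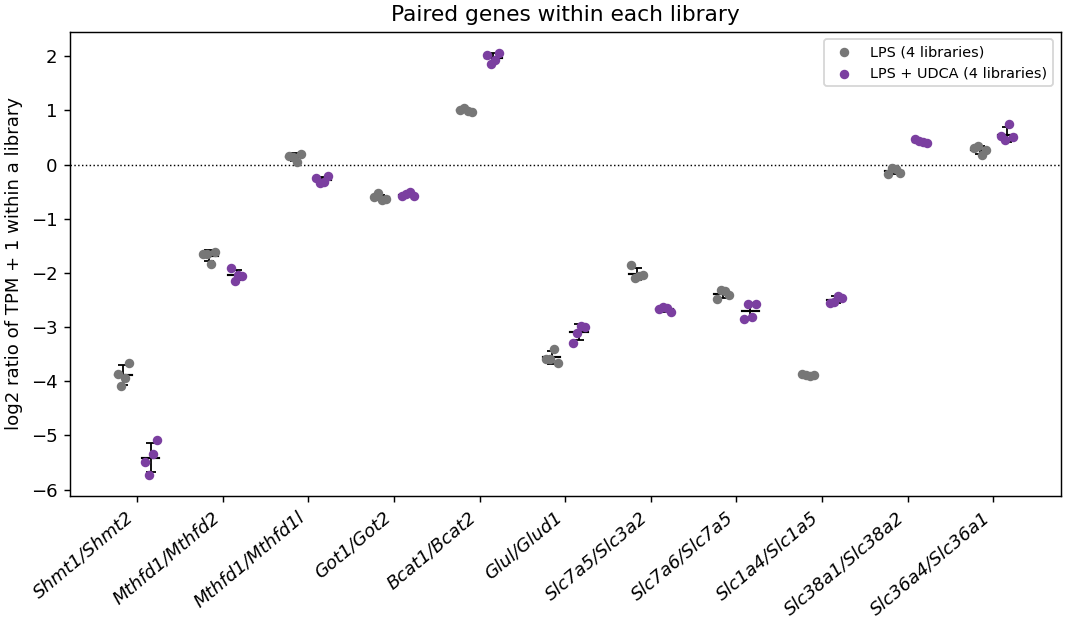
Log2 ratio of TPM + 1 between paired genes (vertical axis) in each LPS library (grey) and LPS + UDCA library (purple), with the group mean and SD as black bars, for 11 pairs of related enzymes, transporters or transporter chains. The groups are apart in every pair but Got1/Got2, and Mthfd1/Mthfd1l and Slc38a1/Slc38a2 cross the dotted line at equal levels.

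Among the transaminases, the aspartate enzymes fell together. Got1, the cytosolic form and the 1 gene with the TGATGNAA core that fell, had 128, 129, 119 and 123 TPM with LPS and 84.5, 84.7, 86.9 and 84.8 TPM in the LPS + UDCA libraries (log2 fold change -0.54, SE 0.037, adjusted p = 1.3e-06 from limma). Got2, the mitochondrial form, had 194, 187, 186 and 192 TPM and 126, 124, 124 and 128 TPM in the same order (log2 fold change -0.59, SE 0.030, adjusted p = 2.4e-07 from limma). Their ratio was -0.60 ± 0.051 with LPS and -0.55 ± 0.035 with LPS + UDCA, groups that overlapped (exact permutation p = 0.14). Of the words of Got2 transcripts, 20.3% occur in another gene. Gpt2, the mitochondrial alanine transaminase, had 21.3 ± 1.35 and 21.7 ± 1.15 TPM and was not called (adjusted p = 0.73 from limma).

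The branched-chain transaminases parted. Bcat1, the cytosolic enzyme, rose slightly, from 84.2, 85.6, 82.1 and 82.4 TPM to 97.5, 94.7, 87.8 and 90.2 TPM (log2 fold change 0.14, SE 0.042, adjusted p = 0.011 from limma), a call that was lost with median-of-ratios scaling (adjusted p = 0.20). Bcat2, the mitochondrial enzyme, fell from 41.5, 40.9, 40.9 and 41.4 TPM to 23.3, 25.4, 22.2 and 20.9 TPM (log2 fold change -0.82, SE 0.059, adjusted p = 1.9e-06 from limma). The Bcat1/Bcat2 log2 ratio went from 1.00 ± 0.032 to 1.97 ± 0.088, so Bcat1 stood at 1.99 to 2.09 times Bcat2 with LPS and at 3.73 to 4.31 times with LPS + UDCA. Here the cytosolic member gained, unlike in the folate pairs.

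Asns, which makes asparagine from aspartate and glutamine and whose window held the TGATGNAA core, was one of 3 enzymes that rose, with 334, 332, 325 and 325 TPM against 385, 387, 365 and 369 TPM. The step was small but clear of the replicate spread (log2 fold change 0.19, SE 0.030, adjusted p = 3.4e-04 from limma). Pycr1, a mitochondrial reductase that completes proline synthesis, rose from 14.1 ± 1.14 to 20.5 ± 0.909 TPM (log2 fold change 0.51, SE 0.067, adjusted p = 1.0e-04 from limma). Aldh18a1, which carries out the preceding steps from glutamate, went the other way, from 93.9 ± 3.90 to 75.5 ± 3.63 TPM (log2 fold change -0.31, SE 0.047, adjusted p = 2.4e-04 from limma). The pseudogene Gm15801 lies inside Aldh18a1 on the same strand and rose from 4.22 TPM on average, by 1.17 on the log2 scale. The proline route therefore held a rise and a fall.

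Glud1, which links glutamate to the citric acid cycle, fell from 122, 116, 108 and 117 TPM to 92.4, 86.1, 85.6 and 89.9 TPM (log2 fold change -0.39, SE 0.046, adjusted p = 5.1e-05 from limma). Glul, glutamine synthetase, was low and not called, with 9.28, 8.79, 9.38 and 8.28 TPM and 8.53, 9.15, 10.1 and 10.4 TPM (adjusted p = 0.35 from limma). The Glul/Glud1 log2 ratio rose by 0.47, from -3.56 ± 0.114 to -3.09 ± 0.147, and with quantile normalization by 0.32 (exact permutation p = 0.057). Shared words made up 19.7% of Glul and 10.4% of Glud1. Cth, which releases cysteine at the end of transsulfuration, fell from 94.1 ± 5.66 to 50.4 ± 2.77 TPM (log2 fold change -0.89, SE 0.057, adjusted p = 9.3e-07 from limma).

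The transporters that rose most were a glycine carrier and a shared heavy chain. Slc6a9, the sodium- and chloride-coupled glycine transporter GlyT1 (chromosome 4, 117834506 to 117875198), had 26.3, 22.3, 23.1 and 23.9 TPM with LPS and 62.3, 61.9, 62.0 and 60.2 TPM with LPS + UDCA. Each LPS + UDCA library was above 60 TPM and each LPS library below 27 TPM (log2 fold change 1.33, SE 0.054, adjusted p = 5.8e-08 from limma). Ccdc24 and B4galt2, which overlap it on the other strand, were both under 1 TPM on average. Slc3a2 (chromosome 19, 8706882 to 8723369), the heavy chain 4F2hc that carries several light chains to the cell surface, was the most abundant transporter gene. It had 439, 464, 443 and 443 TPM with LPS and 897, 883, 904 and 895 TPM with LPS + UDCA (447 ± 11.4 and 895 ± 8.81, SD, n = 4). Its log2 fold change of 0.9987 (SE 0.027, adjusted p = 5.6e-09 from limma) lay just inside the 2-fold line. It was 1.02 without LPS replicate 2 and 1.01 without LPS + UDCA replicate 2, past that line, as were its values with quantile normalization (1.13) and rescaled without the 50 highest genes (1.06).

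Its light chains did not rise in step. Slc7a5, the LAT1 chain that exchanges large neutral amino acids, rose from 121, 108, 105 and 107 TPM to 139.7, 142, 143 and 135 TPM (log2 fold change 0.34, SE 0.048, adjusted p = 1.5e-04 from limma). Slc7a6, a chain for cationic and neutral amino acids, overlapped between the groups at 20.8, 20.8, 20.2 and 19.3 TPM and 18.6, 23.1, 19.4 and 21.9 TPM (adjusted p = 0.76 from limma). The Slc7a5/Slc3a2 log2 ratio fell by 0.66, from -2.01 ± 0.107 to -2.67 ± 0.042, and Slc7a6/Slc7a5 fell by 0.32. Slc7a11, the cystine-glutamate light chain, is no member and was looked up after its values were seen: it had 55.5, 54.6, 49.0 and 56.3 TPM with LPS and 55.1, 55.6, 55.2 and 55.4 TPM with LPS + UDCA (adjusted p = 0.47, limma). The light chains Slc7a7 and Slc7a8, also no members and named after their values were seen, parted. Slc7a7 fell from 17.4 ± 0.601 to 9.77 ± 0.607 TPM (log2 fold change -0.78, adjusted p = 3.1e-06, limma). Slc7a8 rose from 8.49 ± 1.31 to 11.3 ± 0.693 TPM (log2 fold change 0.38, adjusted p = 0.0064, limma).

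**Figure D4:**
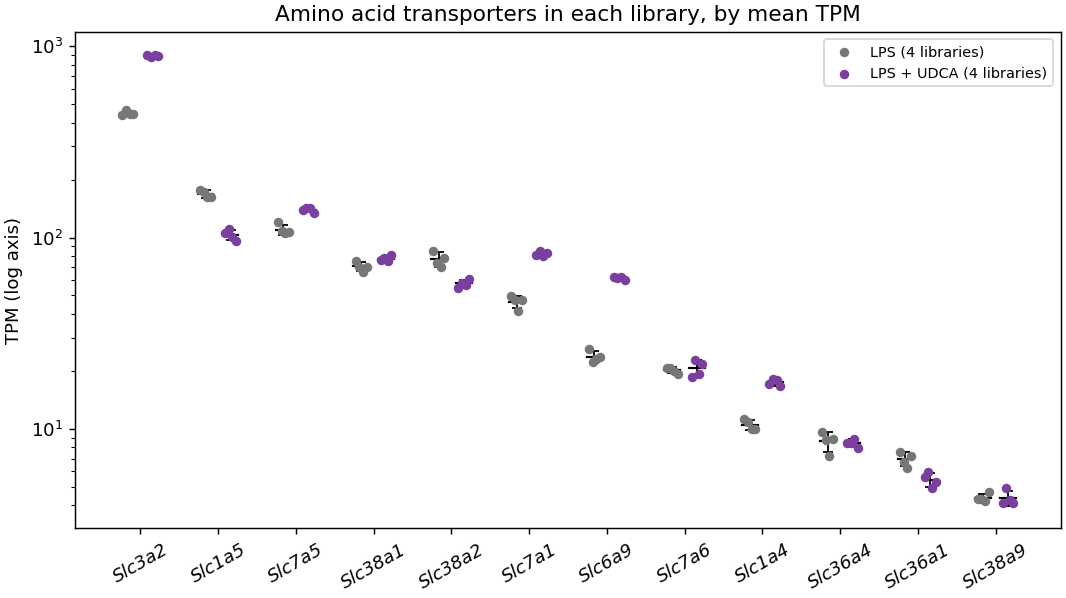
TPM (log axis) of the 12 transporters in 4 LPS (grey) and 4 LPS + UDCA (purple) libraries, ordered by mean TPM, with the mean and SD as black bars where they are wider than the points. Slc3a2, Slc7a1, Slc6a9 and Slc1a4 sit clearly higher with UDCA, and Slc1a5 and Slc38a2 lower.

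Slc7a1, the CAT1 carrier of arginine and lysine, rose from 46.3 ± 3.49 to 82.3 ± 2.0 TPM (log2 fold change 0.82, SE 0.056, adjusted p = 1.4e-06 from limma). The related neutral exchangers Slc1a4 and Slc1a5 moved in opposite directions. Slc1a4 (ASCT1) rose from 11.25, 10.86, 9.97 and 10.04 TPM to 17.2, 18.3, 17.9 and 16.8 TPM (log2 fold change 0.69, SE 0.060, adjusted p = 6.7e-06 from limma). Slc1a5 (ASCT2, a glutamine carrier) fell from 178, 174, 163 and 163 TPM to 106, 111, 101 and 96.2 TPM (log2 fold change -0.70, SE 0.053, adjusted p = 2.5e-06 from limma). Slc1a5 was the more abundant of the pair in every library, and the Slc1a4/Slc1a5 log2 ratio rose from -3.88 ± 0.015 to -2.50 ± 0.065.

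The sodium-coupled neutral carriers behaved likewise. Slc38a2 (SNAT2) fell from 85.6, 73.8, 70.4 and 78.6 TPM to 54.72, 58.14, 56.83 and 61.03 TPM (log2 fold change -0.41, SE 0.064, adjusted p = 3.0e-04 from limma). Slc38a1 (SNAT1) rose slightly, from 75.8, 70.7, 66.2 and 70.7 TPM to 76.1, 78.7, 75.9 and 80.7 TPM (log2 fold change 0.14, SE 0.047, adjusted p = 0.027 from limma). This small rise was the call lost under the most alternatives. Its adjusted p was 0.054 to 0.069 without LPS replicate 2, 3 or 4 or without LPS + UDCA replicate 2 or 4, at log2 fold changes of 0.10 to 0.13, and 0.18 with median-of-ratios scaling. Slc38a2 was the higher of the pair in every LPS library and Slc38a1 in every LPS + UDCA library, with log2 ratios of -0.12 ± 0.052 and 0.43 ± 0.031.

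The Slc36 carriers and Slc38a9 were low. Slc36a1, a proton-coupled exporter of small amino acids, fell from 7.60, 6.73, 6.26 and 7.22 TPM to 5.58, 5.96, 4.90 and 5.28 TPM (log2 fold change -0.31, SE 0.084, adjusted p = 0.0089 from limma). Slc36a4 had 9.60, 8.78, 7.19 and 8.89 TPM and 8.44, 8.49, 8.90 and 7.93 TPM and was not called (adjusted p = 0.84, limma), so the Slc36a4/Slc36a1 log2 ratio rose by 0.29. Slc38a9, the arginine sensor of the lysosomal membrane, had 4.38 ± 0.216 and 4.35 ± 0.385 TPM (adjusted p = 0.93, limma).

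Genes of the same pathways outside the 32 were read from lists compiled by symbol. Of 42 tested enzymes of amino acid and folate metabolism, 23 fell and 13 rose at an FDR under 0.05 (median log2 fold change -0.42), against 32.3% and 40.2% of all genes tested. The lowest were Tyms, thymidylate synthase, at 80.5 ± 2.49 and 15.9 ± 1.79 TPM (log2 fold change -2.27, SE 0.075, adjusted p = 1.8e-08 from limma), and Odc1, which makes putrescine from ornithine, at 4775 ± 52.0 and 1035 ± 27.4 TPM (log2 fold change -2.21, SE 0.026, adjusted p = 6.9e-11 from limma). Tyms is also among the proliferation markers given above, so its fall is counted in both lists. The highest were Gclm and Gclc, the subunits that start glutathione synthesis, with log2 fold changes of 1.99 and 1.26 (adjusted p = 1.9e-09 and 3.4e-07, limma). Of 26 other transporters, 12 fell and 6 rose (46.2% and 23.1%, against 32.3% and 40.2% of all genes tested), with a median of -0.14. The difference from the 12 members was not tested. Ctns, the lysosomal cystine exporter, alone passed the 2-fold line, from 7.74 ± 0.711 to 20.9 ± 1.37 TPM (log2 fold change 1.32, SE 0.077, adjusted p = 5.0e-07 from limma).

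Genes listed for the integrated stress response, the pathway in which ATF4 acts, mostly rose, but its kinase genes were not called. At an FDR under 0.05, 13 of 19 were higher and 2 lower (median 0.54), with 6 and 1 past 2-fold, where all genes tested gave 40.2% and 32.3%, and 8.71% and 8.44% past 2-fold. The 4 not called were the kinase genes Eif2ak1, Eif2ak2, Eif2ak3 and Eif2ak4 (adjusted p = 0.285, 0.674, 0.644 and 0.404 from limma). Atf5, a transcription factor, and Sesn2, a stress-induced inhibitor of mTORC1, were highest, with log2 fold changes of 1.46 and 1.44 (adjusted p = 8.4e-08 and 2.8e-08, limma). The only one past 2-fold in the other direction was Cebpb, a transcription factor, with 161, 148, 83.8 and 60.1 TPM with LPS and 45.9, 55.0, 41.6 and 35.1 TPM with LPS + UDCA (adjusted p = 0.0043, limma). Its LPS libraries were widely spread. Atf4 itself, named after its values were seen, had 472, 477, 475 and 476 TPM with LPS and 953, 950.3, 904 and 897 TPM in the LPS + UDCA libraries (log2 fold change 0.96, SE 0.029, adjusted p = 1.2e-08 from limma). Of members widely described as ATF4 targets, Slc6a9, Slc3a2, Slc7a1, Slc1a4, Pycr1, Slc7a5 and Asns rose, Psat1, Cth, Mthfd2, Slc38a2, Psph, Aldh18a1 and Shmt2 fell, and Phgdh was not called, a grouping made after the values were seen. The balance of rises and falls depends on which members are named as targets.

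**Figure D5:**
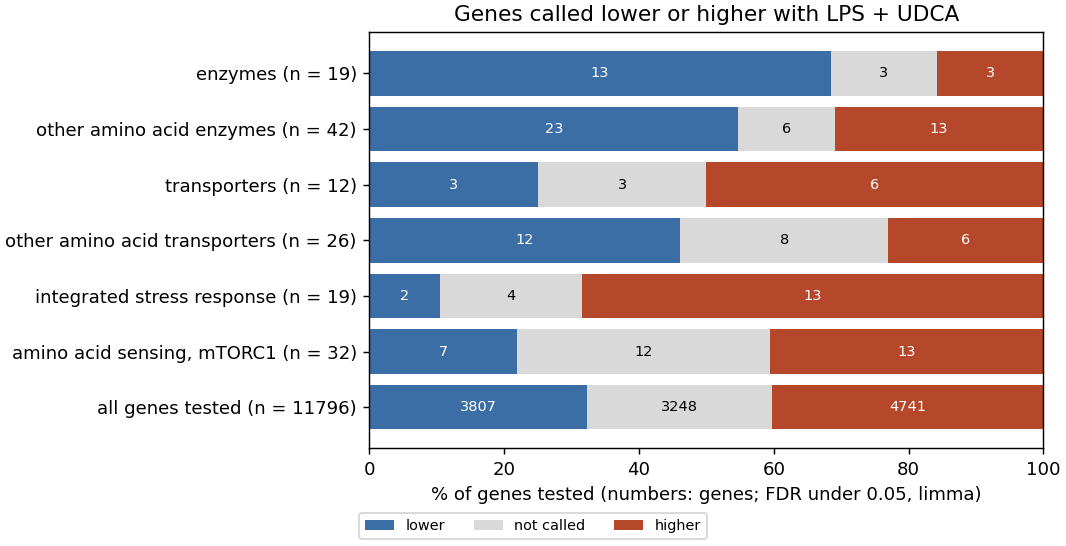
Percentage of tested genes called lower (blue), not called (grey) or higher (red) with LPS + UDCA at an FDR under 0.05 from limma, for the 19 enzymes, the 12 transporters, 4 wider lists and all 11796 genes, with gene counts in the bars. Lower calls make up 13 of the 19 enzymes and 23 of the 42 other enzymes, higher calls 13 of the 19 stress response regulators, and the 12 transporters have 6 higher and 3 lower.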

How the data were processed

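RNA of J774A.1 cells was sequenced in 4 LPS and 4 LPS + UDCA libraries, grouped by the sample labels. The authors deposited 1 table of TPM values per gene and library. That unit was read from the column sums, which run from 958918 to 977485. The submitters' processing notes name Bowtie 0.12.2 and mm10 (GRCm38). The counting program and its use of strand are not given in the sources used here. The paper's methods describe UDCA with or without LPS, whereas the labels pair LPS with LPS + UDCA. TPM keeps no read depth, so no counting error was computed, and precision rests on 4 replicates per group.

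The members and lists were chosen with earlier results of these data known. The 11796 genes averaging 1 TPM or more were fitted as log2(TPM + 1), pseudocount 1, with limma 3.58.1 (R 4.3.3; lmFit, eBayes with a mean-variance trend) and Benjamini-Hochberg adjustment over all of them. Fold changes on this scale understate changes of low genes. Log2 ratios of 11 pairs were compared by exact permutation tests (scipy 1.17.1). Named genes were all members, with per-library values for those past both thresholds (FDR under 0.05, 2-fold), in a pair or highest in a class. From each wider list the 2 highest and 2 lowest past both thresholds were named. Positions, overlaps and shared 31-base words are from GENCODE M21 (GRCm38). Promoter windows are from RefSeq. Alternatives covered scaling, filter, pseudocount, variance model, replicate block and each library left out.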

Additional observations from a re-analysis of the deposited data

Results flagged for a closer look

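For each member and pair ratio, Dixon's ratio (the distance from the most extreme of 4 replicates to the next, over their full range) was set against its 95% critical value. Of 86 groups examined, 4 passed it, where chance flags about 1 in 20, or 4.3. Psph was lowest in LPS + UDCA replicate 3 (201 TPM, ratio 0.840), below the other 3 libraries of its group. Got1 was highest in the same library (86.9 TPM, ratio 0.903), although the group spanned less than 3 TPM. Slc3a2 was highest among the LPS libraries in replicate 2 (464 TPM, ratio 0.836), the library whose removal takes Slc3a2 past the 2-fold line. Slc7a5 was highest among the LPS libraries in replicate 1 (121 TPM, ratio 0.831).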

How the results depend on the processing

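Of 31 members tested, 24 kept direction and side of the FDR threshold in all 17 alternatives. Bcat1 and Slc38a1 lost their calls, as given above. Phgdh, not called in the main fit, was called higher with quantile normalization and lower with median-of-ratios scaling. The reversals were all in genes not called in the main fit. Phgdh was 0.11 with quantile normalization and 0.034 rescaled without the 50 highest genes. Gpt2 was -0.0064 with quantile normalization, -0.051 with median-of-ratios scaling and -0.011 to 0.055 leaving out 1 library. Slc7a6 was -0.010 with quantile normalization, -0.049 with median-of-ratios scaling and -0.025 to 0.073 leaving out 1 library. Rescaled without the 50 highest genes, Slc38a9 was 0.040 and Slc36a4 0.031, and leaving out 1 library they ranged from -0.058 to 0.019 and from -0.096 to 0.028. Members higher by 2-fold numbered 2 in place of 1 with quantile normalization, rescaling and a pseudocount of 0.1, and 1 to 2 leaving out 1 library, since Slc3a2 crossed the line. The median log2 fold change of enzymes was -0.32 with quantile normalization, -0.43 with median-of-ratios scaling and -0.30 rescaled, and -0.37 to -0.34 leaving out 1 library. The median log2 fold change of transporters was 0.0040 with median-of-ratios scaling and 0.14 rescaled, and 0.053 to 0.11 leaving out 1 library. The Glul/Glud1 ratio rose by 0.32 with quantile normalization (exact p = 0.057). The cause of these shifts was not tested. Over all genes, a pseudocount of 5 left 357 genes higher and 532 lower by 2-fold in place of 1028 and 995.

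Whether the replicate numbers pair the libraries could not be settled from 4 same-numbered pairs. Same-numbered deviations from the group means correlated by -0.035 to 0.15 (4 pairs), the others by -0.14 to 0.16, and 5 of 8 libraries correlated best with their own number. With the replicate number as a block, 9 members were higher and 16 lower, as without it, and no member changed its call. For the ratios, 4 pairs cannot give p under 0.125, nor can 4 against 3 libraries reach 0.05, so those settings give values only. TPM hides depth, so low members such as Slc38a9, Slc36a1 and Cbs carry an unknown counting error.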

Other observations

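Genes by which cells sense amino acids at the lysosome and pass the signal to the kinase mTORC1 moved in both directions. Of 32 tested, 13 rose and 7 fell at an FDR under 0.05 from limma (40.6% and 21.9%, against 40.2% and 32.3% of all genes tested), with a median log2 fold change of 0.15. The 2 genes past 2-fold were Fnip1, a partner of folliculin, from 3.20 ± 0.553 to 10.7 ± 2.02 TPM, and Bmt2, the S-adenosylmethionine sensor also called SAMTOR, from 5.93 ± 1.24 to 14.4 ± 1.81 TPM (SD, n = 4). Among genes named after their values were seen, Rheb, the small GTPase that activates mTORC1, rose from 50.5 ± 1.36 to 97.5 ± 4.92 TPM. Of the Ragulator scaffold, Lamtor1, Lamtor2, Lamtor3 and Lamtor4 fell (log2 fold changes -0.35, -0.26, -0.44 and -0.98), and Lamtor5 had 159.8 ± 6.83 and 153 ± 8.06 TPM (adjusted p = 0.28). The small GTPases Rraga and Rragc, which sit on that scaffold, rose by 0.34 and 0.30 on the log2 scale.

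Summed over the members, the 20 enzymes took 2986 to 3090 TPM of each LPS library and 2439 to 2571 TPM of each LPS + UDCA library, and the 12 transporters 960 to 1028 and 1467 to 1481 TPM. The transporter sum rests largely on Slc3a2, which alone held 439 to 464 and 883 to 904 TPM.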
